A study of Mus musculus with 6 samples.

Results

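Early erythroid priming was described through 10 genes, of the 23574 gene features in the counts, in haematopoietic stem cells that lack Hlf and in those of wild-type littermates. They were taken by name: the transcription factor genes Gata1 and Klf1, the receptor genes Epor and Tfrc, the transporter and channel genes Mfsd2b, Aqp1 and Rhag, the surface protein gene Ermap, and the carbonic anhydrase genes Car1 and Car2. The cells came from C57BL/6 mice and were sorted fresh as negative for lineage markers, CD34 and Flt3 and positive for Sca-1 and c-Kit. Each genotype, HLF KO and wild type, had 3 RNA libraries of 3000 cells each, with no treatment named for either group. The sources used here give neither the age of the mice, nor the part of Hlf that was removed, nor whether a library came from 1 mouse or several. P-values therefore rest on the spread between libraries, part of which may be technical.

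Red cells arise from stem cells through progenitors that first transcribe a small set of erythroid genes at low level, a state called priming, and only later make haemoglobin. GATA1 binds GATA motifs in most erythroid genes, and KLF1 binds CACCC boxes and is needed for adult beta-globin. Erythropoietin acts through its receptor, JAK2 and STAT5 on committed progenitors, and transferrin receptor brings in the iron for haem. Hlf encodes a PAR bZIP transcription factor that is abundant in stem cells.

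The wild-type libraries held 8346335 to 9902102 counts and the knockout libraries 10182464 to 11998296, so depth went with genotype. Hlf, the targeted gene, stood at 1370, 1662 and 1114 CPM (counts scaled to a common library size by TMM) in the wild-type libraries and at 28.3, 37.6 and 37.3 CPM in the knockout libraries. It was the 1 gene of 10204 tested that changed by edgeR's quasi-likelihood test (log2 fold change -5.33, SE 0.26, adjusted p = 1.9e-06). An exact permutation of its CPM gave a two-sided p of 0.1, and 3 libraries against 3 can go no lower. Of 15 stem cell markers, 12 were tested. Knockout values were higher for 4 and lower for 8, where 47.2% of all tested genes were higher. The 8 include Hlf itself, the targeted gene, beside Procr (-1.69, SE 0.54) and Mecom (-0.83, SE 0.31). Kit and Ly6a, which encode c-Kit and Sca-1, held 1 and 0 counts in all, and both are listed with several transcripts, so the gate could not be read from them. In each genotype library 3 was the one rich in Xist (16730 and 19229 counts, at most 34 elsewhere). Wild-type library 3 also carried the granulocyte-monocyte markers, which summed to 3429 CPM there, against 634 and 638 CPM in wild-type libraries 1 and 2 and 328 to 490 CPM in knockout.

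The stretches before the start sites of 4 members are shown because 3 of them (Gata1, Aqp1 and Mfsd2b) were higher in every knockout library, while Klf1 encodes the factor that binds CACCC boxes and was not. Each runs 5′ to 3′ over the 250 bases before the RefSeq start site (build GRCm38.p6), and capitals mark matches, on either strand, to a GATA motif (AGATAA, or the same with T as the first letter, G as the last, or both) or to a CACCC box (CCNCNCCC).
Gata1, chrX:7967911-7968160, minus strand: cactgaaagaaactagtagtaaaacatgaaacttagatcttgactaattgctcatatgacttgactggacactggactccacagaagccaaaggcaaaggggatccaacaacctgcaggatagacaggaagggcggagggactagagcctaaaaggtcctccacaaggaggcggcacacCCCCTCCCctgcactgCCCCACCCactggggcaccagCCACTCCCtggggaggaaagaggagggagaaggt
Klf1, chr8:84901732-84901981, plus strand: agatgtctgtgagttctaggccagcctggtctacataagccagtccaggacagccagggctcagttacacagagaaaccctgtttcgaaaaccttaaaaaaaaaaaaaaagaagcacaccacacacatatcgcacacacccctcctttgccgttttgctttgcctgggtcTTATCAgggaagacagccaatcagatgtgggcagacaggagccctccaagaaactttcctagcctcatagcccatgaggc
Aqp1, chr6:55336049-55336298, plus strand: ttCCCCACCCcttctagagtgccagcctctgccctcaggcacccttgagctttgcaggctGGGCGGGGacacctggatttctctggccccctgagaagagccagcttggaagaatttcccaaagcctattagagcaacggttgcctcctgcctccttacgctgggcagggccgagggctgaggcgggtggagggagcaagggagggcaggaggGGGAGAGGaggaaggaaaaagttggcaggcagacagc
Mfsd2b, chr12:4874360-4874609, minus strand: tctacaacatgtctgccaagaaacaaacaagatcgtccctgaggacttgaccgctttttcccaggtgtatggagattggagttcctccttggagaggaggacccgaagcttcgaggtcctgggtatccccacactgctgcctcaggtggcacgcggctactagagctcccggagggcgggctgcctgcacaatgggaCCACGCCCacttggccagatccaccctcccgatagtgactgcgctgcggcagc
The stretch of Klf1 held 1 GATA match, which began 80 bases before the start, and no CACCC match. The stretch of Gata1 held 3 CACCC matches, which began 71, 55 and 34 bases before the start, and no GATA match. Aqp1 likewise held 3 CACCC matches, at 248, 190 and 37 bases, and Mfsd2b held 1, at 53 bases. RefSeq starts were matched for 8 of the 10 members, Tfrc with 2 of them, and Car1 and Car2 were not matched. Of these 8, 4 had a GATA match (Klf1, Epor, Ermap and Rhag, each beginning 31 to 80 bases before the start), against 26.5% of 32841 RefSeq stretches of the same length. A CACCC match was found for 5 (Gata1, Epor, Aqp1, Mfsd2b and Tfrc), against 45.9%, and some of the matches of Epor and Tfrc overlap each other. The letters TTANNTAA, a core shared by PAR bZIP sites, were found before the start of 0 of the 8, against 5.44%. The submitters' processing notes name build mm9, and no count was placed on these coordinates. A match is only a match of letters, and its absence says only that these letters are not in this stretch.

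With adjustment over all genes, edgeR's quasi-likelihood test called 0 of the 10 erythroid-priming genes, where it called 0.0098% of all tested genes. All 10 were above the filter on low counts. The members were chosen with earlier results of these data known, so the comparisons with all tested genes below may partly reflect that choice. Values were higher in knockout for 9 members and lower for 1, Tfrc, where 47.2% of all tested genes had a log2 fold change above 0. The median log2 fold change of the 10 was 0.61, against -0.05 for all tested genes, and standard errors ran from 0.19 (Car2) to 1.37 (Car1). For 3 members every knockout library lay above every wild-type library, where 7.52% of all tested genes did so, and for 0 members every one lay below, where 6.85% did. The same 3 had an unadjusted edgeR p under 0.05, where 2.63% of all tested genes had one with higher values in knockout. For lower values the count was 0 members, where 4.65% of all tested genes had one. DESeq2 called 1 member, Mfsd2b, where it called 0.516% of its genes higher. In sorted bulk cells, more cells that carry a transcript and more transcript per cell cannot be told apart.

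**Figure D1:**
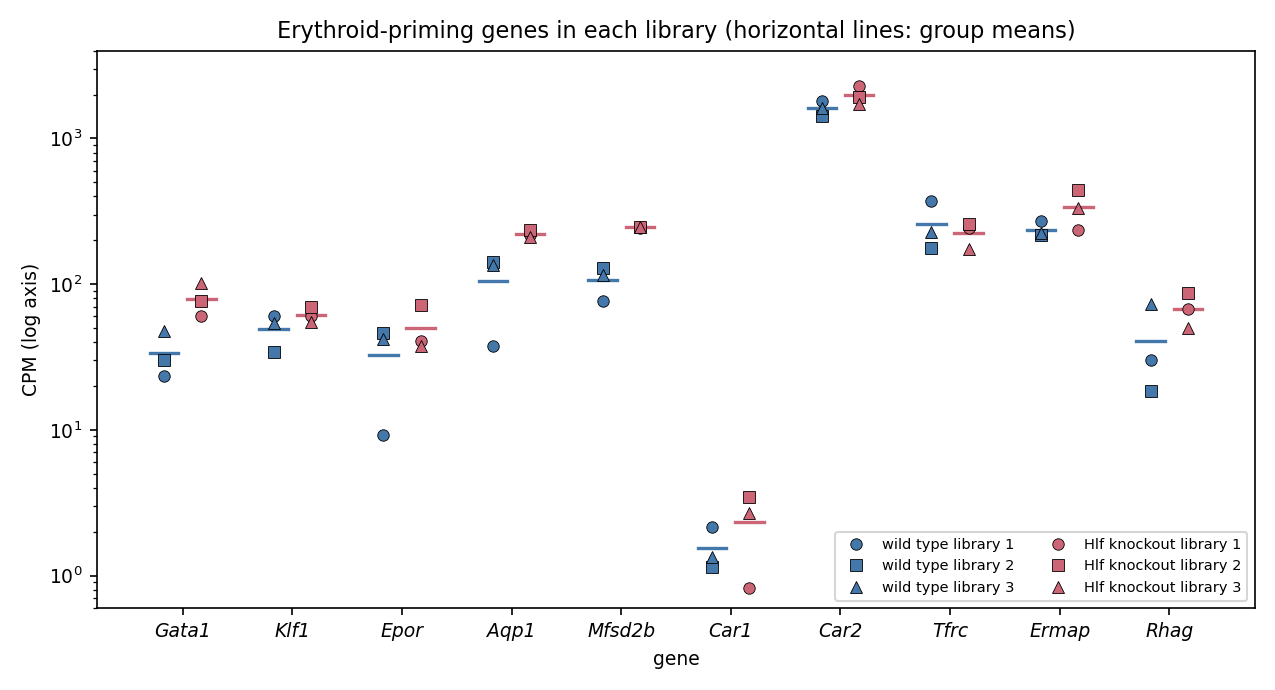
CPM (log axis) of the 10 erythroid-priming genes in each library, blue for wild type and red for Hlf knockout, with a marker shape for each library number and a horizontal line at each group's mean. The red points lie above all blue points for Gata1, Aqp1 and Mfsd2b and overlap the blue ones for the other 7 genes.

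Among the transcription factors, Gata1 stood at 23.3, 30.3 and 47.5 CPM in wild type and at 60.1, 77.0 and 101 CPM in knockout. The groups did not overlap, and the lowest knockout library was 1.26 times the highest wild-type library. The fold was 2.36 with a 95% interval of 1.201 to 4.62 (log2 fold change 1.24, SE 0.44, edgeR unadjusted p = 0.0171, adjusted p = 0.57). Gata1 lies on the X chromosome, and in each genotype its highest value was in library 3, the one with abundant Xist. Between the Xist-rich libraries it was 47.5 against 101 CPM, and in the other libraries 23.3 and 30.3 against 60.1 and 77.0 CPM. With a covariate for Xist, chosen after seeing the data, the log2 fold change was 1.27 (edgeR adjusted p = 0.67).

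Klf1 stood at 60.2, 34.0 and 54.4 CPM in wild type and at 60.0, 70.0 and 55.0 CPM in knockout. Its groups overlapped, with wild-type library 1 above 2 of the knockout libraries. For Klf1 edgeR gave 0.32 on the log2 scale (SE 0.41, adjusted p = 0.90). The 95% interval, 0.67 to 2.33 as a fold, held both no change and a fold as large as that of Mfsd2b.

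Of the receptors, Epor stood at 9.29, 46.5 and 41.9 CPM in wild type and at 40.9, 71.9 and 37.7 CPM in knockout. Wild-type library 1 was the lowest by far, and the other wild-type libraries lay above 2 of the 3 knockout libraries. The log2 fold change of 0.62 (SE 0.61, edgeR adjusted p = 0.85) was 0.20 without wild-type library 1. Tfrc, the transferrin receptor, stood at 372, 177 and 228 CPM in wild type and at 243, 260.0 and 173 CPM in knockout. Here wild-type library 1 was the highest of all 6, the reverse of its place for Epor. Tfrc had a log2 fold change of -0.20 (SE 0.30, edgeR adjusted p = 0.92), whose sign turned without wild-type library 1 (0.17).

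Mfsd2b, the exporter of sphingosine-1-phosphate in red cells and platelets, was the member with the most even knockout values. It stood at 77.0, 129 and 116 CPM in wild type and at 245, 247 and 246 CPM in knockout, so that every knockout library was at least 1.90 times the highest wild-type library. The fold was 2.29 with a 95% interval of 1.504 to 3.48 (log2 fold change 1.19, SE 0.28). The unadjusted edgeR p was 0.0011, the adjusted p 0.43, and the DESeq2 adjusted p 0.0062. Without any 1 library the log2 fold change stayed between 1.02 and 1.36.

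Aqp1, the water channel that carries the Colton blood group, stood at 37.4, 142 and 136 CPM in wild type and at 216, 235 and 209 CPM in knockout. The groups did not overlap, but wild-type library 1 lay far below the other wild-type libraries, whose highest value was 3.79 times its own. The fold was 2.09 with a 95% interval of 1.10 to 3.97 (log2 fold change 1.07, SE 0.42, edgeR unadjusted p = 0.0275, adjusted p = 0.64). The log2 fold change of Aqp1 became 0.68 when wild-type library 1 was left out and 1.35 when wild-type library 2 was. Rhag, the partner of the Rh blood group proteins in the red cell membrane, stood at 30.03, 18.6 and 72.9 CPM in wild type and at 67.1, 86.7 and 49.9 CPM in knockout. Wild-type library 3 lay above 2 of the knockout libraries. For Rhag edgeR gave 0.74 (SE 0.54, adjusted p = 0.77), which became 1.48 when wild-type library 3 was left out and 0.41 when wild-type library 2 was.

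Ermap, a butyrophilin-like surface protein that carries the Scianna blood group, stood at 270.5, 216 and 224 CPM in wild type and at 236, 439.7 and 333 CPM in knockout. Only knockout library 1 overlapped the wild type. Ermap had a log2 fold change of 0.51 (SE 0.26, edgeR adjusted p = 0.70), which dropped to 0.28 when knockout library 2 was left out.

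The carbonic anhydrases, which interconvert carbon dioxide and bicarbonate, lay at the opposite ends of the range. Car2 stood at 1809, 1420.0 and 1625 CPM in wild type and at 2305, 1928 and 1720.4 CPM in knockout, and held 62.3% of all counts of the 10 genes. Its groups overlapped between wild-type library 1 and knockout library 3. For Car2 edgeR gave 0.29 (SE 0.19, adjusted p = 0.74), with a 95% interval of 0.93 to 1.62 for the fold, the narrowest of the 10. Car1, the isoform of mature red cells, had raw counts of 17, 11 and 12 in the wild-type libraries and of 9, 37 and 31 in the knockout libraries, which overlapped. At these counts its log2 fold change (0.59, SE 1.37) had a 95% interval of -2.40 to 3.58, so no difference of several fold was detectable. Car1 is listed with 2 transcripts. Genes listed with several held a median of 3 counts in all 6 libraries together, against 79 for genes with 1, though 6.8% of them held 1000 or more. How reads shared by transcripts were counted is not given, so the low count of Car1 is not read as low expression.

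Per kilobase of transcript, the wild-type order was Car2 (905 CPM per kilobase), Tfrc (53.0), Ermap (52.0), Mfsd2b (43.1), Aqp1 (40.0), Klf1 (32.4), Epor (18.5), Gata1 (17.7), Rhag (17.3) and Car1 (1.29). From Tfrc to Klf1 neighbours differed by less than the larger of their SDs (6.46 to 22.4 CPM per kilobase, n = 3), and so did Epor, Gata1 and Rhag. In knockout the order was Car2 (1109.8 CPM per kilobase), Mfsd2b (98.7), Aqp1 (83.8), Ermap (73.9), Tfrc (46.1), Gata1 (41.8), Klf1 (40.3), Rhag (29.0), Epor (28.5) and Car1 (1.95). Mfsd2b and Aqp1 stood above Tfrc in every knockout library. Gata1 and Klf1 reached like levels there, with SDs of 10.9 and 4.99 CPM per kilobase. The last place of Car1 in both orders is not read as low expression.

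**Figure D2:**
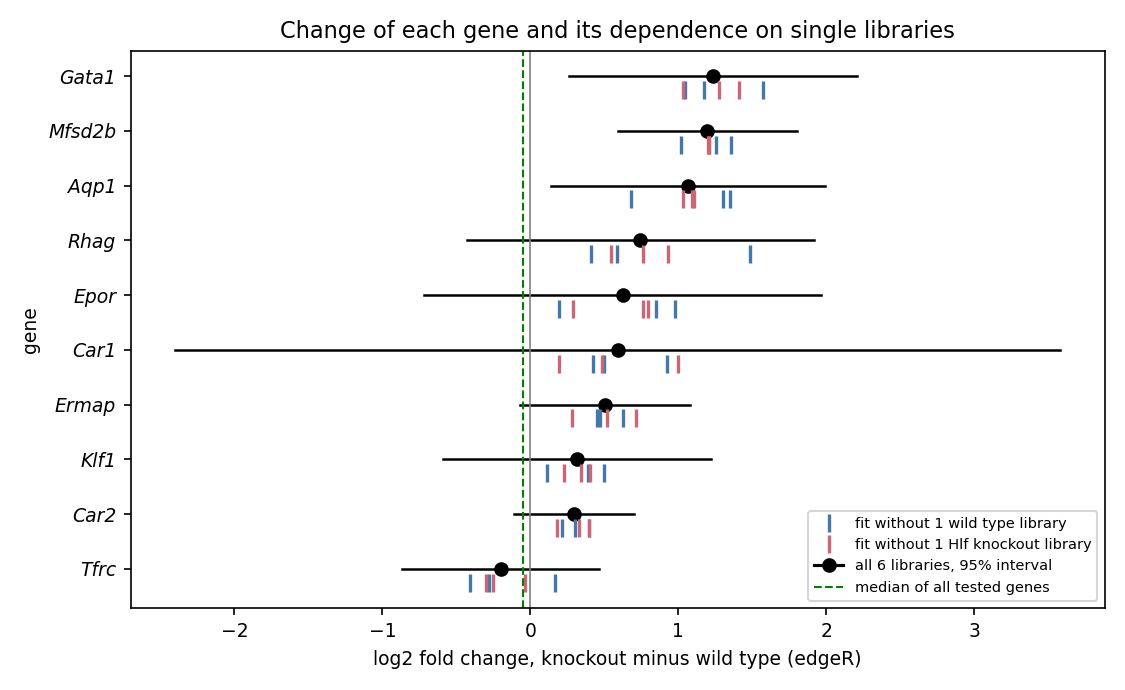
Log2 fold change of each gene, knockout minus wild type, by edgeR (dots, all 6 libraries, with 95% intervals) and the same value with each library left out (blue ticks, 1 wild-type library left out; red ticks, 1 knockout library left out). The intervals of Gata1, Mfsd2b and Aqp1 lie above 0, and the ticks spread most for Rhag, Epor, Car1 and Aqp1.

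Single libraries moved these values. Knockout library 2 was the highest of all 6 for 7 of the 10 genes, and without it the median log2 fold change of the 10 was 0.31. Wild-type library 1 was the lowest for 4 genes (Gata1, Epor, Aqp1 and Mfsd2b) and wild-type library 2 for 4 others (Klf1, Car2, Ermap and Rhag). Wild-type library 1 also had the fewest features with a count, 10796, against 11341 to 12331 in the other libraries, and the part of this in the result was not tested. Without it, 6 members lay higher in knockout with no overlap, the added ones being Klf1, Car2 and Ermap, but so did 13.4% of all genes tested in that setting. An unadjusted edgeR p under 0.05 was kept by Mfsd2b whichever library was left out. Gata1 lost it without knockout library 3 (log2 fold change 1.03), and Aqp1 lost it without any 1 knockout library, at log2 fold changes of 1.03 to 1.11. Ermap gained it without wild-type library 1 or knockout library 1, and Rhag without wild-type library 3.

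Later red cell genes had values in both directions. Of 27 listed genes of maturing red cells, 14 were tested, with 8 higher and 6 lower values. Their median log2 fold change was 0.14, and edgeR called 0 of them. For 3 the unadjusted edgeR p was under 0.05, 1 higher and 2 lower. Over all tested genes those shares were 2.63% higher and 4.65% lower. Tmod1, which caps actin filaments of the red cell skeleton, stood at 3.94, 0.73 and 1.88 CPM in wild type and at 8.05, 12.1 and 60.1 CPM in knockout (log2 fold change 3.61, SE 1.09, edgeR adjusted p = 0.47, DESeq2 adjusted p = 0.0206). Without knockout library 3 its log2 fold change was 2.21. Cd24a, which many other blood cells also carry, stood at -0.67 (SE 0.24) and did not overlap.

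Haemoglobin gave no reading. The 9 globin genes held 1 count in all 6 libraries together (Hba-a2, in wild-type library 3), and Hba-a1, Hbb-b1 and Hbb-b2 were at 0 in each, where 0 allows up to 0.26 to 0.38 CPM. Adult alpha- and beta-globin genes have near-identical copies, and how reads shared by copies were counted is not given, so these zeros are uncertain. Alas2, the erythroid enzyme of the first step of haem synthesis, is listed with 2 transcripts and had 0 counts. Slc4a1, the red cell anion exchanger band 3, was at 0, 0 and 8.09 CPM in wild type and at 8.32, 0 and 1.56 CPM in knockout. The summed level of the maturing red cell list was 1036 to 1678 CPM in wild type and 864 to 1084 CPM in knockout, most of it Cd24a.

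**Figure D3:**
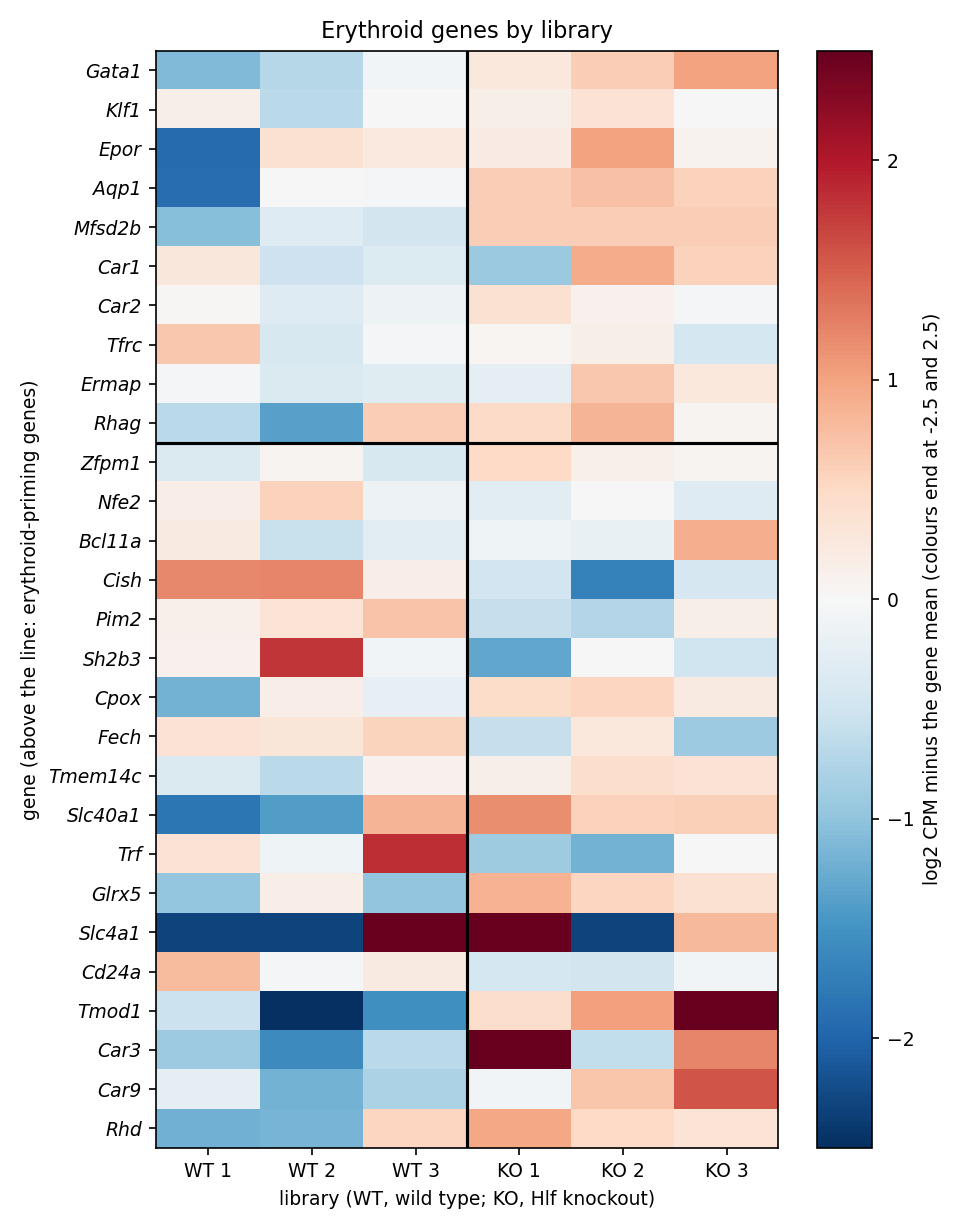
Log2 CPM of erythroid genes in each library minus the gene's mean over the 6 libraries, red above and blue below it, with the 10 erythroid-priming genes above the horizontal line and genes of the other erythroid lists, named by rule, below it. Gata1, Aqp1 and Mfsd2b turn from blue or white in wild type to red in knockout, Cish is reddest in wild-type libraries 1 and 2, and Slc4a1 follows no genotype.

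Other regulators of the erythroid programme showed no common direction. Of 20 listed, 15 were tested, with 9 higher and 6 lower values, a median of 0.10 and 0 of them with an unadjusted edgeR p under 0.05. Those of smallest p were Nfe2, a bZIP factor of the globin and platelet programmes (-0.43, SE 0.26), Zfpm1 and Bcl11a. Zfpm1, which encodes the GATA1 cofactor FOG1, stood at 0.46 (SE 0.29). Bcl11a, a repressor of embryonic globin genes, stood at 0.46 (SE 0.35) and is listed with 4 transcripts. Its value was 0.03 when knockout library 3, at 337 CPM, was left out. Gata2, which precedes Gata1 in progenitors, stood at 545, 588 and 473 CPM in wild type and at 517, 528 and 677 CPM in knockout (0.10, SE 0.20).

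Of 17 listed genes of erythropoietin signalling, 11 were tested, with 3 higher and 8 lower values and a median of -0.55. Cish, a STAT5 target that restrains cytokine signalling, stood at 98.5, 99.8 and 48.2 CPM in wild type and at 30.7, 13.2 and 31.8 CPM in knockout. The groups of Cish did not overlap (log2 fold change -1.70, SE 0.50, edgeR unadjusted p = 0.0058, adjusted p = 0.47, DESeq2 adjusted p = 0.0398). Sh2b3, which encodes the JAK2 inhibitor LNK, had a log2 fold change of -1.39 (SE 0.65), which was -0.53 when wild-type library 2, at 91.0 CPM, was left out. The kinase gene Pim2 stood at -0.75 (SE 0.51). Epor's own value (0.62) and that of Cish thus had opposite signs, and neither passed edgeR's test.

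The medians of haem synthesis and iron genes lay near that of all tested genes. In haem synthesis 16 of 20 were tested, 7 higher and 9 lower, with a median of -0.05 and 0 with an unadjusted edgeR p under 0.05. Cpox, coproporphyrinogen oxidase (0.72, SE 0.35), and the porphyrin transporter gene Tmem14c (0.60, SE 0.31) were higher in every knockout library. Fech, which inserts iron into the ring (-0.73, SE 0.42), was lower in every one. Of all tested genes, 7.52% were higher and 6.85% lower in every knockout library. In iron handling 11 of 16 were tested, 6 higher and 5 lower, with a median of 0.09. Glrx5, needed to make iron-sulphur clusters, stood at 24.7, 53.9 and 24.2 CPM in wild type and at 88.4, 69.8 and 63.2 CPM in knockout (1.11, SE 0.46, edgeR adjusted p = 0.65). Trf, which encodes transferrin, stood at -1.57 (SE 0.69; -0.76 when wild-type library 3 was left out), and the iron exporter gene Slc40a1 at 1.10 (SE 0.74; 2.43 when that library was left out and 0.70 when wild-type library 1 was).

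Relatives of the membrane and carbonic anhydrase members were mostly sparse. Of 28 listed, 16 were tested, 10 higher and 6 lower, with a median of 0.42. Car3 stood at 2.80, 1.66 and 3.32 CPM in wild type and at 32.5, 3.48 and 12.9 CPM in knockout (log2 fold change 2.64, SE 1.12), and the hypoxia-inducible Car9 at 1.59 (SE 0.72). Rhd, the blood group partner of Rhag, stood at 13.6, 13.9 and 45.7 CPM in wild type and at 61.7, 44.6 and 39.6 CPM in knockout (0.99, SE 0.60), with wild-type library 3 high as it was for Rhag. Rhd stood at 1.82 when that library was left out, and Car3 at 1.67 when knockout library 1 was. None of the 3 passed edgeR's test (adjusted p = 0.65, 0.68 and 0.73).

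**Figure D4:**
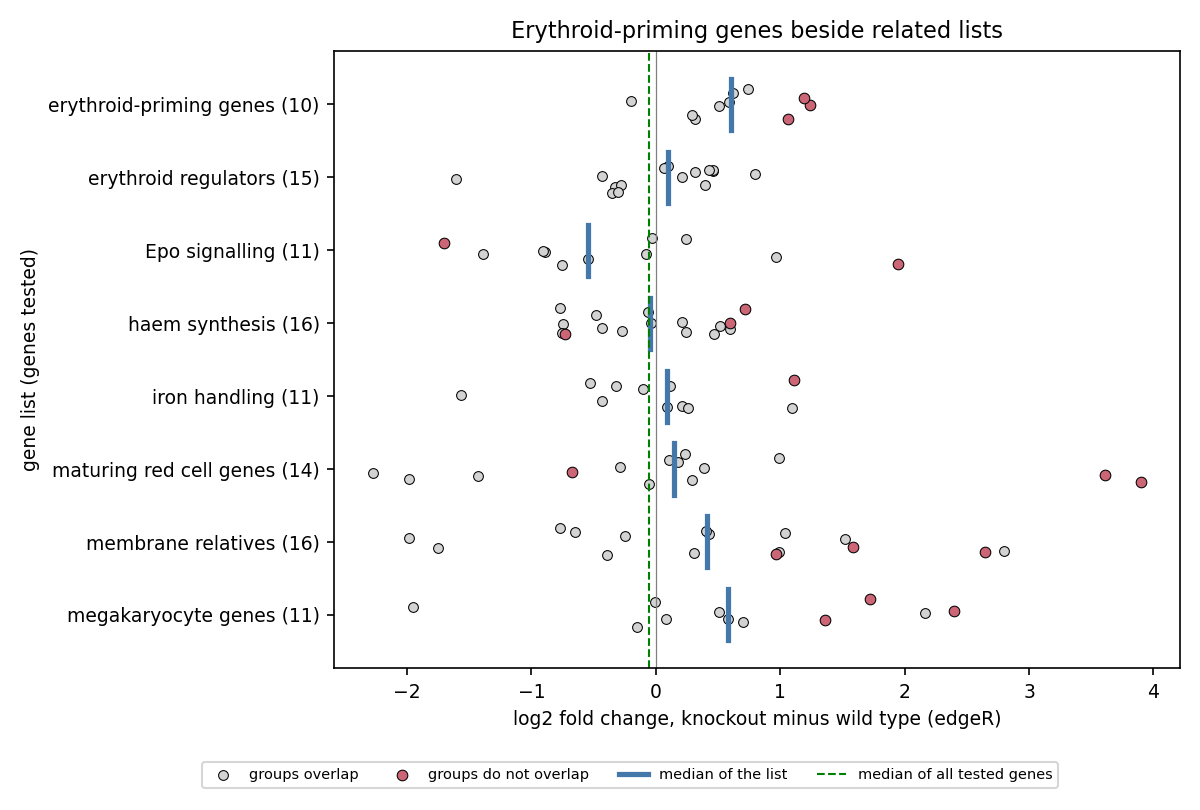
Log2 fold changes, knockout minus wild type, of every tested gene of 8 lists (number of genes in brackets), red where the 3 knockout libraries all lay above or all below the 3 wild-type libraries, with each list's median as a blue bar and the median of all tested genes as a dashed line. The erythroid-priming genes (median 0.61) and the megakaryocyte genes (0.58) have the highest medians of the 8, and Epo signalling the lowest (-0.55).

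Markers of other cells were read beside these values, since GATA1 also drives megakaryocytes. Of 15 megakaryocyte markers 11 were tested, 8 higher and 3 lower, with a median of 0.58, and their summed level was 551 to 777 CPM in wild type and 904 to 1242 CPM in knockout. Pf4 (1.72, SE 0.29), Gp1ba (2.40, SE 0.67) and Gp9 (1.36, SE 0.48), genes of platelet granules and receptors, were higher in every knockout library. Only these 3 of the 11 were so placed, where 7.52% of all tested genes were. Gata1 and Mfsd2b, which that lineage also transcribes, were so placed too. The 3 lower markers were Ppbp (-1.95, SE 1.79), Cd9 (-0.15, SE 0.38) and Itgb3 (-0.004, SE 0.43). Ppbp and Cd9 were higher without wild-type library 1, Itgb3 without wild-type library 2, and Cd9 and Itgb3 without knockout library 1. Of the 8 higher markers, Vwf (0.08, SE 0.44) was lower without wild-type library 2, wild-type library 3 or knockout library 3. With 1 library left out, 7 to 10 of the 11 were higher. Gp6 held 1 count in all. No megakaryocyte marker passed edgeR's test in the main fit (smallest adjusted p = 0.25, Pf4). DESeq2 called Pf4 and Gp1ba, where it called 0.516% of its genes higher. Pf4 passed edgeR's test without a filter on low counts (adjusted p = 0.0069) and without wild-type library 1 (adjusted p = 0.0142). Granulocyte-monocyte markers had lower values in knockout for 9 of 9 tested, a count that rested on wild-type library 3. Without that library 5 of the 9 had higher values (Mpo, Elane, Ctsg, Csf1r and Ms4a3), while Ly6c2 went from -2.40 to -0.76, Prtn3 from -5.07 to -4.12 and Lyz2 from -0.86 to -0.62. The 4 tested markers of mast cells and basophils also had lower values, with summed levels of 111 to 782 CPM in wild type and 42.4 to 94.4 CPM in knockout. Prg2 stood at -8.30 (-4.89 without wild-type library 3), Gzmb at -2.41 (-0.80 without wild-type library 2) and Cpa3 at -0.45 (0.93 without wild-type library 1). Lymphoid markers went both ways (4 higher and 5 lower of 9 tested), with 145 to 191 CPM in wild type and 98.8 to 132 CPM in knockout. Among them Vpreb1 stood at -8.40, Igll1 at -4.06 (-2.07 without wild-type library 2) and Cd3g at 4.09, on at most 6.22 CPM in any library. DESeq2 called Prtn3, Prg2 and Vpreb1 lower (adjusted p = 4.6e-09, 0.00038 and 1.9e-05), where it called 1.02% of its genes lower. By edgeR their adjusted p values were 0.19, 0.50 and 0.37. Each was the only gene of its list lower in every knockout library, where 6.85% of all tested genes were so placed. The part of any of these cells in the erythroid values was not tested.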

How the data were processed

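RNA was sequenced from 6 libraries of sorted stem cells. The values that the authors deposited are raw counts for each RefSeq transcript, whole numbers with no normalisation. TopHat and build mm9 are named in the submitters' processing notes. The counter, annotation, strand setting and treatment of shared reads: not given in the sources used here. Symbols came from RefSeq (GRCm38.p6) for 30363 of 30858 transcripts and from GENCODE for 179, and 316 kept their accession. Counts were summed per gene, and 9 of the 10 members have 1 listed transcript. edgeR 4.0.16 (R 4.3.3) used TMM, filterByExpr (minimum count 10, total 15) and the robust quasi-likelihood test over all 6 libraries, with Benjamini-Hochberg adjustment over 10204 genes at 0.05. Standard errors came from the F statistic. Log2 CPM used a prior count of 2. Alternatives were DESeq2 1.42.0, its size factors, limma-voom 3.58.1, other filters, thinning to 8346335 counts, transcripts as features, a replicate block, an Xist covariate and leaving out each library. The code was tested on simulated data. Transcript lengths are GENCODE's for the same RefSeq transcript. Members and lists were chosen with earlier results of these data known. Named genes are the members, Hlf, the 3 of smallest p per list and set red cell markers, of which Ahsp was not analysed here and 1 is not reported here. Gata2 was named after its values were seen, and likewise Kit, Ly6a, Xist, Gp6, Ppbp, Cd9, Itgb3, Vwf, Mpo, Elane, Ctsg, Csf1r and Ms4a3.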

Additional observations from a re-analysis of the deposited data

How the results depend on the processing

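Across 15 alternatives, 148 of 149 values of the 10 genes kept their direction. The exception was Tfrc (0.17 without wild-type library 1; -0.41 to 0.17 over the libraries left out). Of the 149, 1 passed the threshold, Mfsd2b by DESeq2 (adjusted p = 0.0062). By edgeR the adjusted p of Mfsd2b was 0.43 with all 6 libraries and 0.29 to 0.9994 without 1 library. DESeq2 was not rerun with a library left out. DESeq2 called 170 genes and 1 member, edgeR without a filter on low counts 9 genes, and the Xist covariate 2 (Hlf and Prg2). With 1 library left out, edgeR called 1 to 3 genes and 0 members, the members higher with no overlap numbered 3 to 6, where 11.4% to 16.6% of all genes tested were so placed, and the median log2 fold change of the 10 was 0.31 to 0.76. With the replicate block edgeR called 2 genes (Hlf and Prg2). Over all genes, deviations of same-numbered libraries had r of -0.01, -0.02 and 0.02, and those of differently numbered libraries -0.04 to 0.05. The main fit treated the libraries as sharing only a number. Whether a number marks a litter or day is not given, and these r cannot decide it. Both libraries 3 were rich in Xist, yet their r was only 0.02. Among the 34 other genes named by rule, 2 turned sign. Cpa3 stood at 0.39 by limma-voom, -0.97 to 0.93 over the libraries left out (0.93 without wild-type library 1), 0.30 with the block and 0.10 with the covariate. Slc4a1 stood at -0.28 without wild-type library 1 and also without library 2, and at -1.76 without knockout library 1, with 8.07 without wild-type library 3, which leaves its wild type at 0. Car1 had no value at a minimum count of 30. Low counts limit Car1 most.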

Other observations

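The ratio of 2 genes within a library does not depend on how libraries are scaled. In all, 3 ratios of erythroid to opposing or earlier factors were computed, which were chosen after the values were seen, as log2 ratios of counts with 0.5 added to each. Gata1 to Spi1, which encodes the myeloid factor PU.1, stood at -1.42, -1.15 and -1.08 in the wild-type libraries and at 0.53, 0.06 and 0.65 in the knockout libraries, a difference of 1.63 (1.51 to 1.80 with 1 library left out). Gata1 counts thus lay below Spi1 counts in every wild-type library and above them in every knockout library. These counts were not divided by transcript length, so they do not say which of the 2 genes had more transcript. Spi1 itself stood at 62.6, 67.0 and 100.3 CPM in wild type and at 41.7, 73.8 and 64.5 CPM in knockout. Gata1 to Gata2 stood at -4.55, -4.28 and -3.31 in wild type and at -3.10, -2.78 and -2.74 in knockout, a difference of 1.17 (0.92 to 1.54 with 1 library left out). Both gave p = 0.1 in a two-sided exact permutation test, and 3 libraries against 3 can go no lower. Since the ratios were chosen with the values known and Gata1 itself did not overlap, this p adds no support. Klf1 to Fli1, a factor of the megakaryocyte programme, overlapped between genotypes (difference 0.57, exact permutation p = 0.5), with a value of 0.03 when wild-type library 2 was left out.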
